A study of Mus musculus with 5 samples.

Results

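A set of 9 genes, the 5 transcription factors *Tfap2a*, *Tfap2b*, *Sox10*, *Pax3* and *Ets1* and the 4 endothelin genes *Edn1*, *Ednra*, *Ednrb* and *Ece1*, were followed through 5 Tag-seq libraries of the mouse heart at embryonic day 10.5. They were chosen by name, whatever their level, from 24303 genes of the reference, of which 13486 had a tag in at least 1 library. Of the 9, *Tfap2b* and *Pax3* had no listed tag in any library, *Tfap2a* was listed in 1 library, *Sox10* in 2 and the other 5 in all 5. Tag-seq reads a short tag next to an NlaIII restriction site (CATG) of each polyadenylated transcript, usually the site nearest the 3′ end, and a gene's level is the sum of its tags in every 1000000 tags of the library (tags per 1000000, TPM).

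4 libraries came from wild-type C57BL/6 embryos, of C57BL/6J mothers in the study's methods: the outflow tract (OFT), the vessel-forming exit of the heart, and the atrioventricular canal (AVC), the junction between the chambers, each pooled from 25 embryos, and the atria and the ventricles, each pooled from 20 embryos. The fifth was the AVC of Twist1 Knockout embryos on an ICR background, pooled from 8 embryos and called *Twist1* null AVC here. Strain and genotype differed together in it and cannot be told apart, and its pool was the smallest. The labels state that at least 3 litters went into each pool, and no group had a replicate, so every test below compares libraries and rests on a spread assumed from the study's methods. In bulk tissue, fewer cells of a type and less RNA per cell cannot be told apart.

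Cardiac neural crest cells leave the dorsal neural tube, pass through the pharyngeal arches and enter the OFT, where they take part in dividing it into the aorta and the pulmonary trunk. *Pax3*, the *Tfap2* genes, *Sox10* and *Ets1* encode transcription factors that act at successive steps of crest specification and migration, and *Ets1* is also active in endothelium. Endothelin-1, the product of *Edn1*, is a peptide that is cut to its active form by endothelin-converting enzyme 1, the product of *Ece1*, and signals through the G protein-coupled receptors encoded by *Ednra* and *Ednrb*. In the embryo this pathway patterns crest-derived tissue of the pharyngeal arches and great vessels.

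The libraries held 4223810 to 12977237 listed tags, the largest being the *Twist1* null AVC. Only tag types with more than 5 reads were listed, so the OFT library could show a tag from 1.14 TPM upward, the AVC library from 0.988, the *Twist1* null AVC from 0.462, the atria from 1.29 and the ventricles from 1.42. *Twist1* itself, the transcription factor that the knockout removes, was at 918 TPM in the AVC and 4.55 TPM in the *Twist1* null AVC, a log2 ratio of -7.66 (adjusted p = 3.39e-11, edgeR exact test). Tags of 6 erythroid markers made up 215353 TPM of the atrial library and 46710 of the ventricular one, against 3079 for the OFT, 2422 for the AVC and 27350 for the *Twist1* null AVC. 7 cardiomyocyte markers summed to 7343 TPM in the atria and to between 17177 and 21865 TPM in the other 4 libraries. In the ventricles *Actc1* gave 13856 TPM of the sum and *Myl2* 6196. The other markers of the list were lower in the ventricles than in the OFT and AVC, *Myl7* for example at 775 against 4222 and 4341 TPM. Genes seen on both sides had a median log2 ratio of 0.88 for the OFT over the chambers and 0.99 for the AVC over the chambers, the chambers being the summed atria and ventricle libraries. The ratios to the chambers are therefore also given after TMM normalization, a scaling that sets the typical gene near 0. It lowered those log2 ratios by 0.86 for the OFT and by 0.95 for the AVC. In the other 2 comparisons the median was -0.08 for the OFT over the AVC and -0.23 for the *Twist1* null AVC over the AVC.

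**Figure D1:**
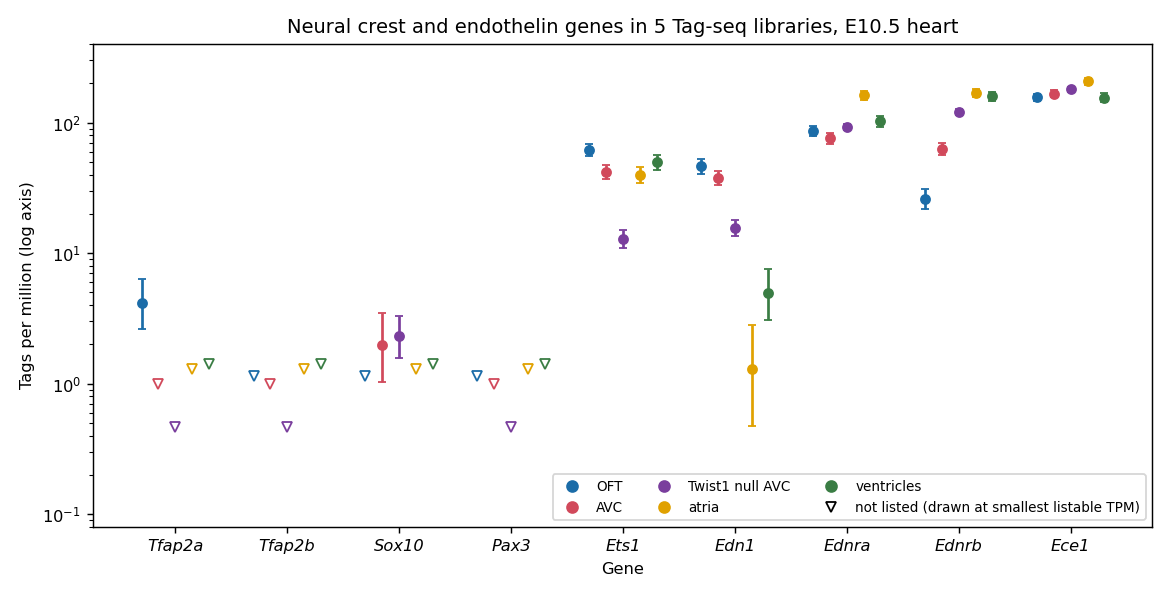
Level of each of the 9 genes in each library, in TPM on a log axis, with the gene on the horizontal axis. Points carry 95% Clopper-Pearson intervals for counting error, and open triangles mark a gene that was not listed, drawn at the smallest level the library could list. *Tfap2a* has a point in the OFT only, *Edn1* spans from 1.29 to 46.3 TPM and *Ece1* stays between 155 and 207 TPM.

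*Tfap2a*, which encodes the transcription factor AP-2 alpha of the crest and of the surface ectoderm, was listed only in the OFT. It had 22 tags there, or 4.18 TPM (95% interval 2.62 to 6.32, Clopper-Pearson, counting error only, as for all intervals on TPM), and was not listed in the AVC, the *Twist1* null AVC, the atria or the ventricles. The tags fell on 2 sites of the 3′ UTR, printed with the NlaIII site in capitals because they are the whole evidence for the gene. Both lie on the minus strand of GRCm38, at chr13:40716227-40716247 with 15 tags and at chr13:40716046-40716066 with 7 tags.
Tfap2a, 15 tags: CATGttaaacgattataatga
Tfap2a, 7 tags: CATGgggagaaaaataaagtt
The second is the 3′-most site of a reference transcript. A further 7 tags of the OFT lay antisense to the gene. A missing tag type can hide 5 reads. With that allowance the OFT tags counted gave at least 2.54-fold the AVC level and at least 1.86-fold the chamber level. These bounds leave out the counting error of the 22 OFT tags.

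*Tfap2b*, the AP-2 beta gene, and *Pax3*, which marks the dorsal neural tube and early crest, had no listed tag. For *Tfap2b* 20 of 21 possible tags belonged to that gene alone, and for *Pax3* all 16 did. The tags below come from the 3′-most sites of their reference transcripts and are shown because they are what the libraries would have listed. Those of *Tfap2b* lie on the plus strand at chr1:19234248-19234268 and chr1:19237901-19237921, and that of *Pax3* on the minus strand at chr1:78101310-78101330.
Tfap2b, first site: CATGgacaagatgttcttgaa
Tfap2b, second site: CATGgttacaagacccctccc
Pax3: CATGtaaaaagtgcagtaaat
The values of 1.14, 0.988, 0.462, 1.29 and 1.42 TPM given above for the OFT, the AVC, the *Twist1* null AVC, the atria and the ventricles are therefore the limits for each of these tags. Expression below them was not detectable.

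*Sox10*, which encodes a factor of migrating crest and of glial precursors, was listed in the AVC at 1.98 TPM (12 tags, interval 1.02 to 3.45) and in the *Twist1* null AVC at 2.31 TPM (30 tags, 1.56 to 3.30), and in none of the OFT, atria or ventricles. Its intervals in the 2 AVC libraries overlap. All 12 AVC tags and 18 of the 30 *Twist1* null tags came from the 3′-most site, at chr15:79154991-79155011 on the minus strand, and the other 12 from a site upstream of it, at chr15:79155131-79155151.
Sox10, 3′-most site: CATGttcctatccctctagct
Sox10, upstream site: CATGtacagtctacctttgcc
Over the 3′-most site the AVC tags counted gave at least 1.76-fold the chamber level once up to 5 hidden reads per library are allowed. The same allowance put the OFT at no more than 0.481 times the AVC. Both bounds leave out the counting error of the 12 AVC tags, so the true ratios can lie beyond them.

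Markers of other cells that could carry these factors gave mixed values. Of the glial markers, *Foxd3* was at 0 in all 5 libraries, and *Fabp7* had 2.63 TPM in the AVC library, 0.925 in that of the *Twist1* null AVC and 0 in the other 3. Of 6 markers of surface and pharyngeal epithelium, *Cdh1* and *Trp63* were at 0 in every library. *Grhl3*, a gene of the surface ectoderm, had 3.99 TPM in the OFT library, 4.71 in the atrial one and 0 elsewhere, and *Krt18* ranged from 3.13 TPM in the AVC to 22.7 in the atria. *Epcam* was listed only in the atria, at 1.29 TPM, and the list summed to 224 TPM in the OFT, of which *Krt8* gave 212, and to between 40.5 and 73.2 TPM elsewhere. Of 4 neuronal markers 3 were listed in the OFT, summing to 67.4 TPM, against 23.2 for the AVC, 28.5 for the *Twist1* null AVC, 0 for the atria and 1.89 for the ventricles. *Stmn2* alone gave 57.7 of the OFT sum, while *Tubb3* and *Elavl4*, at 7.02 and 2.66 TPM in the OFT, stood higher in both AVC libraries, *Tubb3* at 9.88 and 15.9 TPM and *Elavl4* at 6.58 and 8.48. The part of these cells in the *Tfap2a* and *Sox10* tags was not tested.

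*Ets1*, an ETS-family factor of crest and endothelium, was the only one of the 5 factors listed in all libraries. It was at 61.9 TPM (55.4 to 69.0) in the OFT, 49.7 (43.2 to 56.9) in the ventricles, 42.0 (37.0 to 47.5) in the AVC, 39.9 (34.3 to 46.0) in the atria and 12.9 (10.99 to 14.98) in the *Twist1* null AVC. The intervals of neighbours in that order overlap from the OFT down to the atria, and the *Twist1* null AVC lies below all of them.

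2 sites in the 3′ UTR of *Ets1*, each the last site of a reference transcript, gave most of its tags and are shown because their balance differed between libraries. The upstream site lies at chr9:32754427-32754447 and the downstream one at chr9:32757260-32757280, both on the plus strand.
Ets1, upstream site: CATGgacagacgcgcagaagg
Ets1, downstream site: CATGcggccttctctgttggg
The upstream site had 71 tags in the OFT, 51 in the AVC, 63 in the *Twist1* null AVC, 0 listed in the atria and 7 in the ventricular library. The downstream site had 222, 182, 87, 186 and 203 tags in the same order. The upstream share was thus 24.2% (19.4 to 29.6) for the OFT, 21.9% (16.8 to 27.8) for the AVC and 42.0% (34.0 to 50.3) for the *Twist1* null AVC. It was 3.33% (1.35 to 6.75) in the ventricles and, with up to 5 unlisted reads, at most 2.62% in the atria. A share within a gene does not depend on how libraries are scaled, and these intervals cover counting error only. This comparison was chosen after the values were seen. In TPM the downstream site of the *Twist1* null AVC stood at 6.70 against 30.0 in the AVC, and the upstream site at 4.85 against 8.39.

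**Figure D2:**
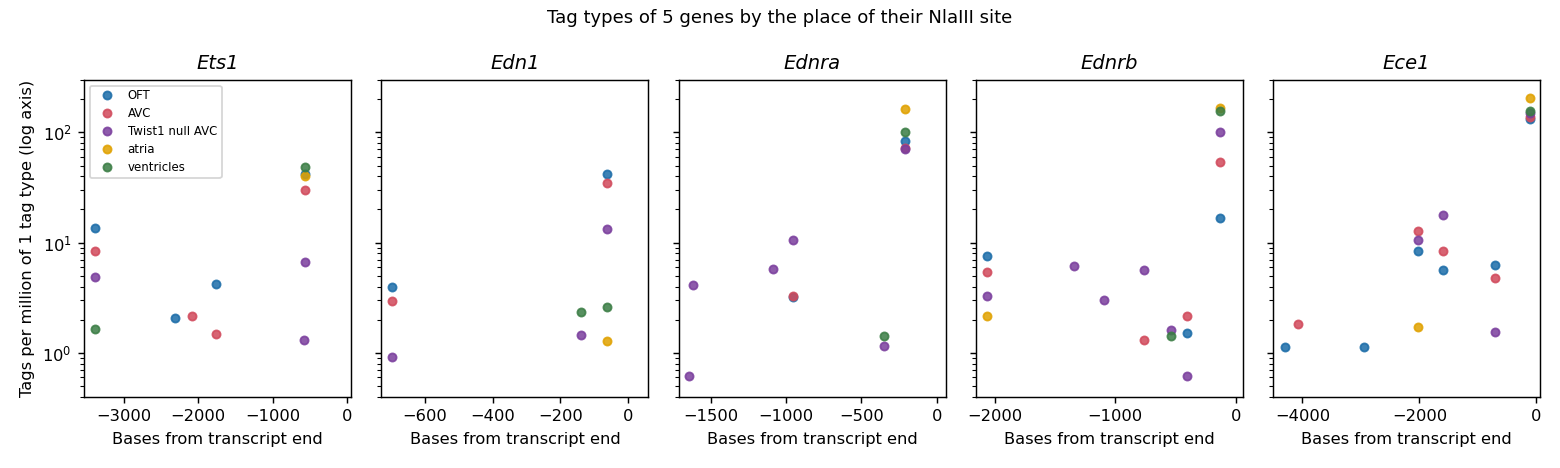
Level of each tag type of the 5 genes listed in all libraries, in TPM on a log axis, against the distance of its NlaIII site from the transcript's 3′ end in bases. Each point is 1 tag type in 1 library. The highest points sit at the site nearest the end for *Edn1*, *Ednra*, *Ednrb* and *Ece1*, while *Ets1* has a second cluster 3394 bases upstream of the end.

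*Edn1*, the gene of the endothelin-1 ligand, was high in the cushion-bearing regions and low in the chambers. It was at 46.3 TPM (40.7 to 52.5, 244 tags) in the OFT, 37.7 (33.0 to 42.9, 229 tags) in the AVC, 15.6 (13.5 to 17.9, 202 tags) in the *Twist1* null AVC, 4.97 (3.08 to 7.60, 21 tags) in the ventricles and 1.29 (0.472 to 2.80, 6 tags) in the atria. The OFT and AVC intervals overlap, and each later step in the order lies clear of the one before it by counting error of the listed tags. The 6 atrial tags are the fewest that the files can list. The 3′-most site, at chr13:42307930-42307950 on the plus strand, gave 223 of the OFT tags and 211 of the AVC tags.
Edn1, 3′-most site: CATGctttgttttgcctgtca
From the listed tags the ventricle level was 3.87-fold the atrial level, with a counting interval of 1.51 to 11.7. Of the 21 ventricular tags, 10 came from a site not listed in the atria, where up to 5 reads can be hidden. The 3′-most site alone had 11 ventricular and 6 atrial tags, at 2.60 and 1.29 TPM. The fold therefore depends partly on the listing threshold.

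*Ece1*, which encodes the enzyme that releases active endothelin, was the most even of the 5 genes seen everywhere. It was at 207 TPM (194 to 220) in the atria, 180 (173 to 188) in the *Twist1* null AVC, 166 (156 to 176) in the AVC, 156 (145 to 167) in the OFT and 155 (143 to 167) in the ventricles. The atria stood apart by counting error, and the intervals of each other pair of neighbours overlap. Its 3′-most site, at chr4:137965122-137965142 on the plus strand, gave 701 of 820 tags in the OFT and all 655 in the ventricles.
Ece1, 3′-most site: CATGgggtttggagctgggga

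*Ednra*, the receptor gene known for its part in crest-derived tissue, was at 161 TPM (150 to 173) in the atria, 102 (92.9 to 112) in the ventricles, 92.2 (87.1 to 97.6) in the *Twist1* null AVC, 86.2 (78.4 to 94.5) in the OFT and 75.6 (68.8 to 82.8) in the AVC. Only the atria lay clear of the next library by counting error. *Ednrb*, the receptor gene known for its part in melanocyte and enteric crest and also found in endothelium, varied more. It was at 167 TPM (156 to 180) in the atria, 158 (147 to 171) in the ventricles, 120 (115 to 127) in the *Twist1* null AVC, 62.9 (56.7 to 69.5) in the AVC and 26.0 (21.8 to 30.7) in the OFT. The chambers overlap, and each of the other 3 libraries lies clear of its neighbours. The 3′-most site of *Ednra* lies at chr8:77663217-77663237 and that of *Ednrb* at chr14:103814731-103814751, both on the minus strand, and they gave most tags of each receptor in every library.
Ednra, 3′-most site: CATGaacctttaactctttgc
Ednrb, 3′-most site: CATGcacttgtaataaagccg
In the *Twist1* null AVC 909 of 1197 *Ednra* tags, or 75.9%, came from that site, against 439 of 459, or 95.6%, in the AVC. Over all genes, 3′-most sites gave 67.5% and 70.5% of gene tags in the same 2 libraries.

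The share of receptor tags that came from *Ednra* is free of library scaling, and was examined after the levels were seen. It was 76.8% (73.2 to 80.2) of 591 receptor tags in the OFT, 54.6% (51.1 to 58.0) of 841 in the AVC, 43.4% (41.5 to 45.2) of 2760 in the *Twist1* null AVC, 49.1% (46.6 to 51.6) of 1534 in the atria and 39.2% (36.3 to 42.2) of 1101 in the ventricles. With the 3′-most sites alone it was 83.1%, 57.2%, 41.1%, 49.4% and 39.1% in the same order. The OFT was the highest on both counts and lay clear of the other 4 libraries by counting error.

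**Figure D3:**
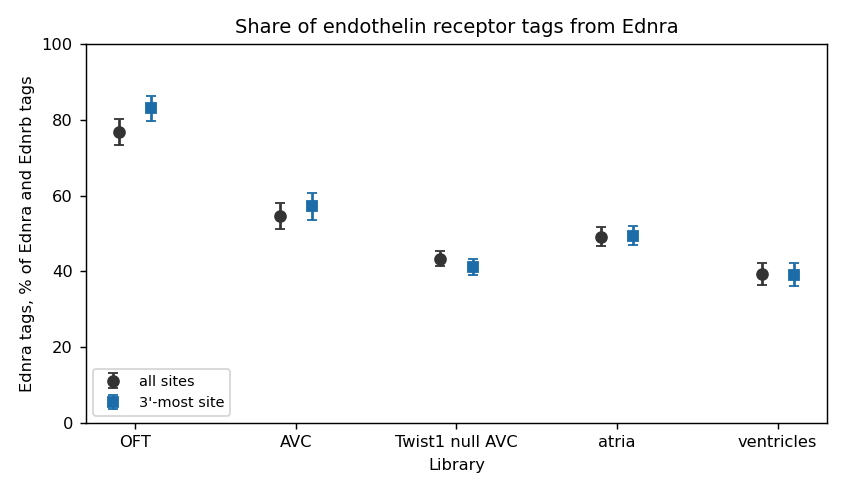
*Ednra* tags as a percent of *Ednra* and *Ednrb* tags in each library, from all sites (circles) and from the 3′-most site of each gene (squares), with 95% Clopper-Pearson intervals for counting error. The OFT stands at 76.8% and 83.1%, and the other libraries lie between 39.1% and 57.2%.

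The direct comparison of the 2 cushion regions asked which genes set the OFT, the region that the crest enters, apart from the AVC. *Tfap2a* was the only one of the 7 members tested that was called, higher in the OFT (adjusted p = 0.0165, exact test with Benjamini-Hochberg adjustment over 12541 genes). Over all genes tested, 1.24% were called higher in the OFT and 1.88% lower. That call rests on 22 tags, and it was lost when only the 3′-most site was counted (adjusted p = 0.262) or when 5 reads were given to each missing tag type (adjusted p = 1). *Ednrb* was 2.42-fold lower in the OFT at 26.0 against 62.9 TPM, and was not called (log2 ratio -1.27, 95% interval with the assumed spread -2.69 to 0.14, adjusted p = 0.535). *Sox10*, at 0 against 1.98 TPM, was not called either (adjusted p = 0.127). *Ets1*, *Edn1*, *Ednra* and *Ece1* had log2 ratios of 0.56, 0.30, 0.19 and -0.09, each with an adjusted p of 1. The interval of *Edn1*, from -1.11 to 1.71, shows how wide a difference a single pair of libraries leaves possible.

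Against the chambers, *Edn1* was 15.3-fold higher in the OFT, at 46.3 against 3.04 TPM (log2 ratio 3.93, 95% interval 2.43 to 5.43, adjusted p = 4.77e-05). *Tfap2a* was also called higher (4.18 TPM against none listed, adjusted p = 5.92e-04), a call lost with 5 reads for each missing tag type (adjusted p = 0.560). *Ednrb* was 6.27-fold lower in the OFT, at 26.0 against 163 TPM (log2 ratio -2.65, interval -4.06 to -1.24, adjusted p = 0.00319). Set against 1 chamber at a time, the fitted log2 ratio of *Edn1* was 5.14 over the atria and 3.21 over the ventricles. These 2 higher calls and 1 lower call among 6 members tested stand beside 34.1% of all genes called higher and 6.77% called lower. After TMM normalization 20.04% of all genes were called higher and 12.2% lower. The log2 ratios became 3.07 for *Edn1* (adjusted p = 0.00155) and -3.51 for *Ednrb* (adjusted p = 1.83e-04), and both stayed called, as did *Tfap2a*. *Ets1*, *Ednra* and *Ece1* were not called, with log2 ratios of 0.47, -0.63 and -0.23. After TMM normalization they were -0.38, -1.49 and -1.08, so that of *Ets1* turned negative, and none was called.

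The AVC was set against the same chambers. *Edn1* was 12.4-fold higher in the AVC than in the chambers, at 37.7 against 3.04 TPM (log2 ratio 3.63, interval 2.13 to 5.13, adjusted p = 1.69e-04). After TMM normalization its log2 ratio fell to 2.68 and stayed called (adjusted p = 0.00552). Its fitted log2 ratio was 4.85 over the atria alone and 2.92 over the ventricles alone. In the same comparison *Sox10* was called higher at 1.98 TPM against none listed (adjusted p = 0.0101). The *Sox10* call was lost with 5 reads for each missing tag type (adjusted p = 0.683). Over all genes 35.6% were called higher and 5.53% lower, and after TMM normalization 19.4% and 11.9%. *Ednrb* was 2.59-fold lower in the AVC, at 62.9 against 163 TPM, and missed the threshold (log2 ratio -1.38, interval -2.77 to 0.02, adjusted p = 0.115). After TMM normalization it was called, at a log2 ratio of -2.33 (adjusted p = 0.0107). *Ets1*, *Ednra* and *Ece1* had log2 ratios of -0.09, -0.82 and -0.14 and were not called. After TMM normalization these were -1.04, -1.77 and -1.09, still uncalled, with *Ednra* at an adjusted p of 0.0524. With DESeq2 size factors *Ednra* was called lower, at a fitted log2 ratio of -1.81 (adjusted p = 0.0487). The 2 comparisons with the chambers share those libraries, so their values are not independent of each other.

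Endothelial marker tags also summed to more outside the chambers. All 6 markers were listed in each library but the AVC, which had 5. The sum was 424 TPM for the OFT, 382 for the AVC and 413 for the *Twist1* null AVC, against 159 for the atria and 202 for the ventricles. *Cdh5*, a cadherin of endothelial junctions, was at 109 and 90.9 TPM in the OFT and AVC and at 8.57 and 12.8 TPM in the atria and ventricles, while *Tek*, an endothelial receptor gene, was at 55.2, 59.3, 63.0 and 86.2 TPM in the same order. Their part in the *Edn1* difference was not tested, nor was that of the erythroid tags given above.

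**Figure D4:**
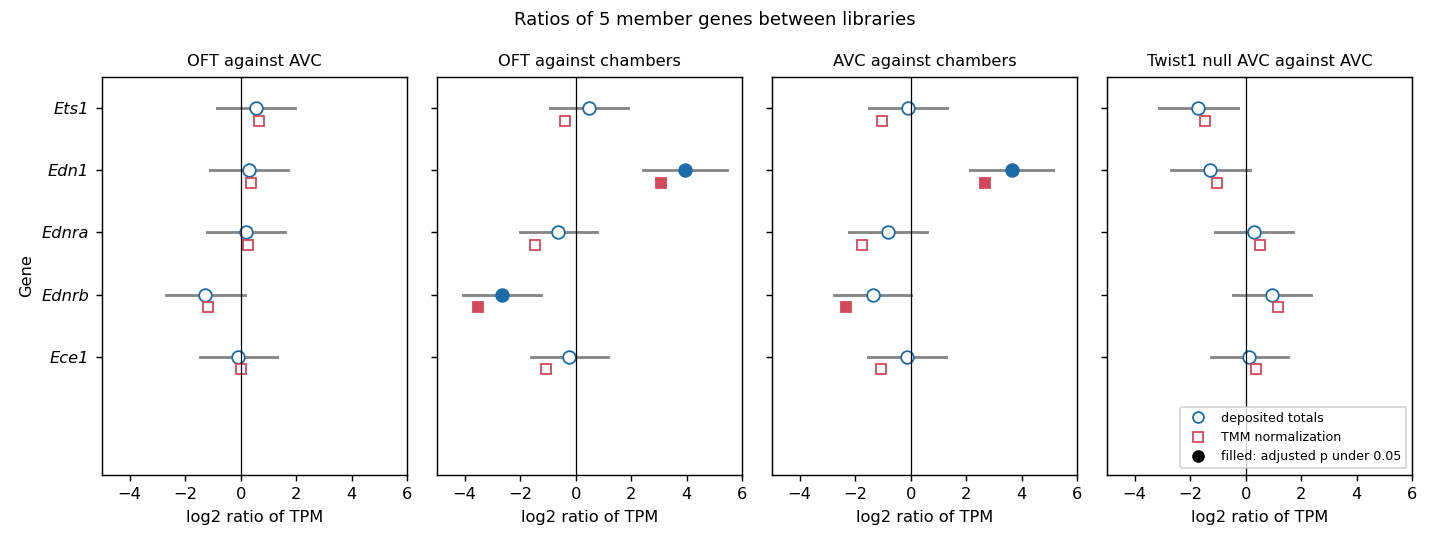
Log2 ratio of TPM for the 5 genes listed in all libraries, in the 4 comparisons. Circles use the deposited totals, with grey lines for the 95% interval under the assumed spread, squares use TMM normalization, and filled symbols passed an adjusted p of 0.05. *Edn1* is filled in both comparisons with the chambers, *Ednrb* is filled for the OFT against the chambers and, with TMM normalization, for the AVC against the chambers, and no gene is filled for the *Twist1* null AVC.

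The last comparison asked what differed in the AVC without *Twist1*. None of the 6 members tested was called by the exact test. *Ets1* was 3.26-fold lower in the *Twist1* null AVC, at 12.9 against 42.0 TPM (log2 ratio -1.71, interval -3.12 to -0.29, exact p = 0.0239, adjusted p = 0.132). *Edn1* was 2.42-fold lower at 15.6 against 37.7 TPM (log2 ratio -1.28, interval -2.69 to 0.14, adjusted p = 0.280). *Ednrb* was 1.92-fold higher at 120 against 62.9 TPM (log2 ratio 0.94, interval -0.46 to 2.33, adjusted p = 0.438). *Sox10*, *Ednra* and *Ece1* had log2 ratios of 0.23, 0.29 and 0.12. The ratios of *Sox10* and *Ednra* turned negative, to -0.51 and -0.04, when only the 3′-most site was counted. Over all genes tested 5.06% were called higher and 3.93% lower.

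Other tissue markers also differed between the 2 AVC libraries. All 5 cushion mesenchyme markers were listed in both, and they summed to 2524 TPM in the AVC and 615 TPM in the *Twist1* null AVC. Each was lower in the *Twist1* null AVC, but by unlike amounts. *Col3a1* was at 1439 TPM in the AVC against 207, *Sox9* at 514 against 114 and *Vcan* at 413 against 263. The erythroid markers summed to 2422 TPM in the AVC and 27350 in the *Twist1* null AVC. The endothelial sum was 382 and 413 TPM. The part of these in the *Ets1* and *Edn1* values was not tested.

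A list of 30 other neural crest genes placed the members among their pathway. Of the 22 with a tag in the OFT or AVC, 2 were called higher in the OFT than in the AVC and 20 were not called, beside 1.24% of all genes called higher. *Isl1*, a factor of the second heart field that some crest cells also express, was at 72.9 against 2.30 TPM, 31.6-fold higher (adjusted p = 3.88e-05). *Dlx2*, a homeobox gene of arch crest, was at 3.04 TPM in the OFT and not listed in the AVC (adjusted p = 0.0407). With 5 reads allowed for its missing tag type its OFT level was at least 3.69-fold that of the AVC, counting error left out, and the call was lost (adjusted p = 1). The 3 list genes with the most OFT tags, the cushion factors *Hand2*, *Sox9* and *Twist1*, were not called between the 2 regions. *Hand2* was at 665 against 422 TPM, *Sox9* at 377 against 514 and *Twist1* at 299 against 918. *Foxd3*, *Tfap2c*, *Zic1*, *Pax7* and *Ret*, factors and a receptor of early or neurogenic crest, were at 0 in all 5 libraries, as *Tfap2b* and *Pax3* were.

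Against the chambers 17 of 22 genes of that list were called higher in the OFT and 1 lower, and in the AVC 13 of 21 were higher and 1 was lower. Over all genes, 34.1% and 35.6% were called higher, and 6.77% and 5.53% lower. The single lower gene was *Mycn* in both. The median fitted log2 ratio of the list was 3.23 for the OFT and 2.61 for the AVC, beside 1.07 and 1.23 over all genes tested. With TMM normalization 15 and 10 were called higher, beside 20.04% and 19.4% of all genes. *Erbb3*, *Dlx2* and *Msx2* were not listed in the chambers. With 5 reads for each missing tag type the OFT calls of *Erbb3* and *Dlx2* were lost (adjusted p = 0.0906 and 0.326, exact test). That of *Msx2* was kept, as were the AVC calls of *Erbb3* and *Msx2*. The count over all genes also fell with that allowance, as given below. *Erbb3* and *Msx2* were named after their values were seen. In the *Twist1* null AVC 1 of 22 was called higher, *Mycn* at 68.2 against 9.88 TPM, and 2 lower, *Twist1* and *Sox9*, the latter at 114 against 514 TPM (adjusted p = 0.0437), beside 5.06% of all genes higher and 3.93% lower. The call of *Sox9* was lost with TMM normalization (adjusted p = 0.0753). *Mycn*, a growth-promoting factor, was named after its values were seen.

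A second list held the other ligands and enzymes of the endothelin pathway, its G proteins and effectors, and target genes of *Ednra* in the arches. 24 of its 25 names were in the reference, 1 being an older name of another gene in it, and *Hand2* is in both lists. None of 16 genes tested was called between the OFT and the AVC by the exact test, and none had an unadjusted p under 0.05. Against the chambers 8 of 16 were called higher in the OFT and none lower, and in the AVC 9 of 16 were higher and 1 was lower, the latter being *Kel*, an endopeptidase gene named after its values were seen. Of all genes, the same 34.1% and 35.6% were called higher, and 6.77% and 5.53% lower. The list's median fitted log2 ratio was 1.66 and 2.25, beside 1.07 and 1.23 over all genes. With TMM normalization 7 and 5 of 16 were called higher, beside 20.04% and 19.4% of all genes. *Gnaq*, the G protein alpha subunit through which endothelin receptors activate phospholipase C, had 193 TPM in the OFT library, 155 in that of the AVC and 49.1 in the *Twist1* null AVC, but 9.43 in the atria and 23.0 in the ventricles. *Hand1*, a target gene of endothelin signalling in the arches, was at 123, 65.8, 77.2, 0 and 22.5 TPM in the same order.

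Of the other 2 ligand genes, *Edn3* was at 0 in all 5 libraries, and *Edn2* was listed only in the *Twist1* null AVC, at 2.08 TPM from 27 tags (adjusted p = 0.0161 against the AVC). With 5 reads allowed in the AVC it was at least 2.53-fold higher, counting error left out, and the call was lost (adjusted p = 0.583). It was the 1 call among 17 genes of the list in the knockout comparison, beside 5.06% of all genes called higher and 3.93% lower. *Edn2* was named after its values were seen. The related protease genes *Ece2* and *Ecel1* and the arch targets *Dlx3*, *Dlx5*, *Dlx6* and *Gsc* were at 0 in all 5. *Edn1* was thus the only endothelin ligand gene listed in the OFT, AVC, atria and ventricles.

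The genes closest to each member over the 5 libraries, by Euclidean distance of log2(TPM + 1), were found among all genes with a tag. For *Ets1* they were *Ftsj3* (distance 0.48) and *Fam136a* (0.53), and for *Edn1* *Ak3* (0.41) and *1810032O08Rik* (0.47). *Ak3* was at 35.9 TPM in the OFT library, 34.9 in that of the AVC, 14.8 in the *Twist1* null AVC and 5.21 in the ventricles. Near *Ednra* lay *Rnf141* (0.72). The nearest to *Ednrb* were *Map1lc3b* (0.76) and *Glrx* (0.86), to *Ece1* *Cdc37* (0.60) and *Park7* (0.62), and to *Sox10* *Nthl1* (0.08) and *Mybl1* (0.08). The last pair rests on 2 low values and 3 zeros, where many low genes look alike.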

How the data were processed

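Tag-seq libraries were made from total RNA of 5 pooled tissues. The authors cut oligo(dT)-bound cDNA with NlaIII, sequenced 21-base tags, filtered reads for quality and deposited raw counts per tag type for tag types with at least 6 reads. Base calls came from Bustard, and per the labels the submitters' processing notes name mm9. That build was not used: coordinates are those of GRCm38, from GENCODE M21.

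Tags were matched in sense to 33363 RefSeq-linked transcripts extended by 20 adenines, 308949 of 315529 possible tags belonged to 1 gene, and those were summed per gene. This held 70.7% to 74.5% of tags. The genome sequence was not used, so a second match outside transcripts was not looked for. Tags with no sense match were 20.4% to 24.6% of each library. TPM used the sum of listed tags.

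Comparisons used edgeR 4.0.16 (R 4.3.3) exactTest, two-sided, with the dispersion fixed at 0.12 as in the study, a prior count of 0.125 for fitted ratios and Benjamini-Hochberg adjustment over all genes with a tag on either side. A gene was called at an adjusted p under 0.05. Intervals on log2 ratios add the assumed dispersion to counting error. The script was tested on simulated data. PCR reads carry no molecular identifiers, so intervals on TPM cover counting error only. Alternatives covered scaling (TMM, DESeq2 1.42.0 size factors, all-tag totals), dispersion, tag and gene filters, sites and missing tags.

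The members and lists were chosen with earlier results of these data known. Text names all 9 members, *Twist1*, the 3 genes of each list with most OFT tags, list genes called between OFT and AVC, and the 2 genes nearest to each member. Values of some genes these rules and lists hold are not reported here.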

Additional observations from a re-analysis of the deposited data

Results flagged for a closer look

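Antisense tags were not used in the gene levels, and for 5 genes their share was higher in the *Twist1* null AVC than in the wild-type AVC. As a percent of sense and antisense tags, it was 36.2 against 11.9 for *Ednra*, 28.9 against 5.90 for *Ets1*, 20.2 against 7.66 for *Edn1*, 13.5 against 0 for *Ednrb* and 19.1 against 13.7 for *Ece1*. Over all genes the share was 10.97% and 7.92% in the same 2 libraries, with 8.44% for the OFT, 4.07% for the atria and 5.05% for the ventricles. Single tag types carried most of it for *Ednra*, with 639 of 680 tags at chr8:77663377-77663397, and for *Ece1*, with 516 of 550 tags at chr4:137964431-137964451. For *Edn1* the atria had 13 antisense and 6 sense tags. Depth differed as well, with 12977237 listed tags in the *Twist1* null AVC and 6075421 in the AVC, so rarer tag types could pass the listing limit in the former. For *Ednrb* 6 antisense tag types were listed in the *Twist1* null AVC and 0 in the AVC. Each of them can hide 5 reads in the AVC, so the share of 0 there is a floor value. No test was made, since there is 1 library per group.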

How the results depend on the processing

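Each comparison was repeated under 15 planned settings, where they applied, and 1 added after the data were seen, the 3′-most site with TMM normalization. Of the alternatives' log2 ratios of members, 326 kept direction and call, 12 gained a call, 13 lost one and 15 changed sign. The number of members called between OFT and AVC, 1 as reported, became 2 at a dispersion of 0.05 or with unadjusted p, and 0 at a dispersion of 0.4, with genes of at least 50 tags, with the 3′-most site (with or without TMM), with 5 tags for missing tag types and without tags starting with T. For OFT against chambers it went from 3 to 0 at a dispersion of 0.4, and to 2, without *Tfap2a*, with genes of at least 50 tags, with 5 tags for missing tag types and with the added setting. For AVC against chambers it went from 2 to 4, with *Ednra* (adjusted p = 0.0487 and 0.0431) and *Ednrb* lower, with DESeq2 size factors and with the added setting, to 3 with TMM and at a dispersion of 0.05, to 0 at a dispersion of 0.4, and to 1 with genes of at least 50 tags, with 5 tags for missing tag types and without tags starting with T. For *Twist1* null AVC against AVC it went from 0 to 2 at a dispersion of 0.05 and to 1 with unadjusted p and after thinning to the smallest total.

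Log2 ratios that changed sign were those of *Ece1* for OFT against AVC (0.26 with all-tag totals, 0.050 with the added setting), *Ets1* for OFT against chambers (-0.38 with TMM, -0.40 with DESeq2 size factors, -0.50 with the added setting), *Ece1* for OFT against chambers (0.25 with all-tag totals, 0.0055 against the ventricles alone), *Ets1* for AVC against chambers (0.032 with all-tag totals, 0.019 after thinning, 0.075 against the atria alone) and *Ece1* for AVC against chambers (0.097 against the ventricles alone). In the *Twist1* null AVC they were those of *Sox10* (-0.51 with the 3′-most site, -0.27 with 5 tags for missing tag types, -0.093 with the added setting) and *Ednra* (-0.045 with the 3′-most site). None of these was called in either direction. The cause of these changes was not tested. Over all genes, 392 were called between OFT and AVC, and 1577 of 12541 with unadjusted p. The count was 965 at a dispersion of 0.05, 0 at 0.4 and 47 with at least 50 tags. It was 1062 with tag types of more than 10 tags and 12 with 5 tags for missing tag types. For OFT against chambers 5095 became 780 at 0.4, 3231 with at least 50 tags and 2320 with 5 tags. For AVC against chambers 5137 became 7770 at 0.05, 634 at 0.4 and 2511 with 5 tags. For the *Twist1* null AVC 1166 became 4117 at 0.05, 0 at 0.4, 599 with at least 50 tags, 1943 with more than 10 tags a type and 358 with 5 tags. No paired analysis was possible because each group has 1 library, and for that reason no library could be left out of a group. Depth and the listing threshold set the limit for *Tfap2b* and *Pax3*.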
